A study of Mus musculus with 9 samples.

Results

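The genes described here are 8 S100 calcium-binding protein genes, S100a8, S100a9, S100a6, S100a4, S100a10, S100a11, S100a1 and S100a13, found by their symbols among the 55322 genes of the expression table. The table holds 20 genes whose symbols begin with S100, so 12 were not among the 8. The 8 were chosen by their FPKM levels in these same libraries, with differences between the groups in view. Their differences between the groups are therefore given as a description, with no p-value for a member. How many of them a fit over all genes called is printed beside the share of all genes called, and nothing is read from it.

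S100 proteins are small proteins that bind calcium through a pair of EF-hand motifs and mostly act as dimers. S100a8 and S100a9 form calprotectin, the main cytosolic protein of neutrophils, which starves microbes of zinc and manganese and signals through Tlr4 and RAGE (Ager) once released. The other members act chiefly inside the cell, by binding annexins, myosin and other partners. Mature B cells are not known for calprotectin, whereas macrophages are rich in S100a4, S100a6 and S100a10.

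Sequenced RNA came from bone marrow (BM) B cells that were sorted by CD11b, an integrin of myeloid cells, into CD11b+ B cells and CD11b- B cells (CD11b- cells below), and from peritoneal macrophages (PMs, sorted as CD11b+F4/80+ cells), with 3 libraries in each of the 3 groups. Mice were wild type in each group, on the C57BL/6 background in the study's text, and no source used here gives their age. The B cell groups came from mice that had received LPS (5 mg/kg, injected into the peritoneal cavity) 48 h earlier, and the PMs came from naive mice. Cells carrying CD3, CD4, CD8, Gr-1, NK1.1 or TER119 were removed before the B cells were sorted, so that granulocytes, which carry Gr-1, were depleted from both B cell groups. B cells of naive mice were not analysed here, so no value below measures an effect of LPS. Between B cells and PMs the cell type, the tissue and the treatment all change, and these cannot be told apart. The labels do not say whether the libraries of a group came from separate mice, while the study's text keeps SDs for biological replicates and uses them for these libraries. The SDs, SEs and p-values below measure the spread between the libraries.

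In GENCODE M21 (GRCm38) the members lie on chromosome 3 as protein-coding genes in a pair of blocks. S100a1 (90511034 to 90514392, minus strand), S100a13 (90514435 to 90524581, plus), S100a4 (90603771 to 90606045, plus), S100a6 (90612882 to 90624181, plus), S100a8 (90668978 to 90670035, plus) and S100a9 (90692632 to 90695721, minus) share a block of 185 kb. S100a11 (93520488 to 93526287, plus) and S100a10 (93555080 to 93564643, plus) lie 2825 kb further on. S100a8 and S100a9 point towards each other with 22.6 kb between their ends. S100a1 and S100a13 point away from each other, and their annotated starts are 43 bases apart (0.043 kb).

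The promoters of the 3 genes that stood higher in CD11b+ than in CD11b- cells without overlap are shown because these genes had the largest differences in log2(FPKM + 1) between the sorted B cell groups. Each run holds the 250 bases before and the 50 after the start in RefSeq (GRCm38.p6), read 5′ to 3′ along the gene. Capitals mark matches, on either strand, to the letters TTNNGNAA (bound by C/EBP factors of myeloid cells), GAGGAA (PU.1), TGANTCA (AP-1) or TATAAA (the TATA box).
S100a8 (chr3:90668821-90669120, plus strand): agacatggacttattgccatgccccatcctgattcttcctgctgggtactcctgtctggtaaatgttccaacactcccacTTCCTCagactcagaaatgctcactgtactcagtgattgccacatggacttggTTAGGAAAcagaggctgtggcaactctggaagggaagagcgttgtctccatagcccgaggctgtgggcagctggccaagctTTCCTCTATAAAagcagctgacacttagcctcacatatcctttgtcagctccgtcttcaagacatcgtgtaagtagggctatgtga
S100a9 (chr3:90695672-90695971, minus strand): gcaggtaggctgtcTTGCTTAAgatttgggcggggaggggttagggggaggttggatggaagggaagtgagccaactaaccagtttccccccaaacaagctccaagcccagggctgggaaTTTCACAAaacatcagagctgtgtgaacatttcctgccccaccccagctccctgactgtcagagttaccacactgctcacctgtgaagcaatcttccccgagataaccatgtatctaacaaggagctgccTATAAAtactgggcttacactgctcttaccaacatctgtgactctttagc
S100a6 (chr3:90612644-90612943, plus strand): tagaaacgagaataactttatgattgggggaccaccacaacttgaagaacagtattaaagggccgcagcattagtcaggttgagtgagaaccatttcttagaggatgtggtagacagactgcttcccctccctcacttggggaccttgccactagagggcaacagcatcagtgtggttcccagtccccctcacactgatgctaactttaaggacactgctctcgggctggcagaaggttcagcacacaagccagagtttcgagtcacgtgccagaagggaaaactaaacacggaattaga
The S100a8 window held 1 match to TTNNGNAA at -117 from the start, 2 to GAGGAA at -170 and -36, and 1 TATAAA at -30. The S100a9 window held 2 matches to TTNNGNAA, at -236 and -130, and TATAAA at the start itself, and no 2 of these matches overlapped. The RefSeq start used for S100a8 lies 93 bases from the nearest start in GENCODE M21, and that of S100a9 is the same in both. The S100a6 window held none of the 4 motifs. Of 7 member promoters in the table, TTNNGNAA was in 2 (S100a8 and S100a9), against 40.7% of 32851 promoters of the same length. GAGGAA was in 3 (S100a8, S100a4 and S100a11; 28.3% of all promoters), TATAAA in 3 (S100a8, S100a9 and S100a4; 13.6%) and TGANTCA, 2 times, in S100a11 alone (7.81%). A match is a run of letters and not a bound site, and no binding was measured here.

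Levels are given as FPKM, the reads on a gene scaled to its exon length and to the library's total reads on genes. The length is that of the annotated exons and not of the transcripts present, so comparisons between genes are approximate. The libraries held 18014658 to 35251215 reads on genes, fewer in PMs (at most 29208721) than in CD11b- cells (at least 32056102). The summed FPKM of 13 B cell markers was 13185 to 16347 in the 6 B cell libraries and 141 to 276 in PMs, and Cd79a, which encodes a part of the B cell receptor, was at 1848 to 2580 in the B cell libraries. The PMs carried Adgre1 (F4/80), Csf1r and Itgam (CD11b) at 160 or more in each library. Itgam, whose protein defined the sort, was at 1.92, 1.31 and 1.51 in CD11b+ B cells and at 0.400, 0.251 and 0.869 in CD11b- cells. Within a group the libraries are named replicates 1, 2 and 3, and values are given in that order. In bulk RNA, fewer cells of a type and less RNA per cell cannot be told apart.

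**Figure D1:**
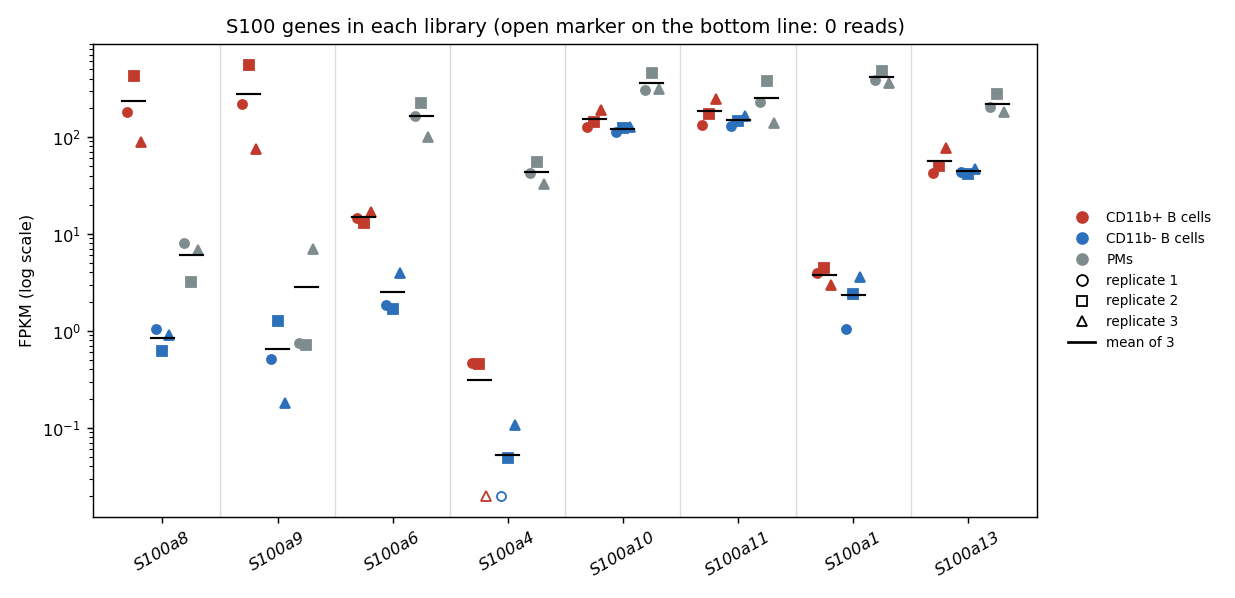
FPKM (log axis) of each S100 gene in each of the 9 libraries, coloured by group, with a bar at the mean of 3. S100a8 and S100a9 ranged from 74.5 to 545 in CD11b+ B cells and from 0.179 to 8.0 in the other libraries, whereas S100a1 was at 361 to 483 in PMs and at most 4.4 in B cells.

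S100a8, the smaller calprotectin subunit, was at 180, 428 and 88.1 FPKM in CD11b+ B cells. In CD11b- cells it was at 1.04, 0.619 and 0.899, and in PMs at 8.0, 3.21 and 6.85. The CD11b+ libraries stood above every other library, and PMs above every CD11b- library. The mean in CD11b+ B cells (232 ± 176, SD, n = 3) was 273-fold that in CD11b- cells (0.852 ± 0.212) and 38.6-fold that in PMs (6.02 ± 2.5). Without CD11b+ replicate 2 these folds were 157 and 22.3. The values rested on 13606, 59 and 261 reads over the 3 libraries of each group. On the log2(FPKM + 1) scale, which understates the change of low genes, S100a8 was higher by 6.69 ± 0.49 (SE) than in CD11b- cells and by 4.84 ± 0.55 than in PMs. CD11b- cells were lower than PMs by 1.86, with an SE of 0.35.

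S100a9, the larger calprotectin subunit, was at 221, 545 and 74.5 FPKM in CD11b+ B cells, at 0.517, 1.26 and 0.179 in CD11b- cells, and at 0.744, 0.721 and 7.02 in PMs. Again the CD11b+ libraries stood apart, but CD11b- cells and PMs overlapped. PM replicate 3 stood about as high in S100a9 as in S100a8, whereas the other PM libraries were low in S100a9. The mean in CD11b+ B cells (280 ± 241, SD, n = 3) was 429-fold that in CD11b- cells (0.653 ± 0.554). This fold was 226 without CD11b+ replicate 2 and 805 without CD11b- replicate 2. Against PMs (2.83 ± 3.63) it was 99.0-fold, or 52.1-fold without CD11b+ replicate 2 and 382-fold without PM replicate 3. The differences in log2(FPKM + 1) were 7.04 ± 0.63 (SE) and 6.18 ± 0.80. There were 12202 reads in CD11b+ B cells, 35 in CD11b- cells and 92 in PMs.

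The pair kept a narrow ratio where it was abundant. S100a8 over S100a9 was 0.816, 0.786 and 1.18 in the CD11b+ libraries. In PMs the ratio was 10.7, 4.44 and 0.976, and in CD11b- cells 2.01, 0.491 and 5.01, the last on 20 reads of S100a8 and 3 of S100a9. Ranked by FPKM among all genes, S100a9 was the 162nd and S100a8 the 195th gene by mean level in CD11b+ B cells, against ranks of 12835 and 12140 in CD11b- cells and 8163 and 5547 in PMs.

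S100a8 and S100a9 varied more between the CD11b+ libraries than the other members with reads in each library. From the lowest to the highest library S100a8 varied 4.86-fold and S100a9 7.32-fold, while S100a6 varied 1.31-fold, S100a10 1.49-fold and S100a11 1.86-fold. Replicate 2 was the highest and replicate 3 the lowest for both calprotectin genes. For S100a6, S100a10, S100a11 and S100a13 replicate 3 was the highest instead, while S100a1 was highest in replicate 2 and lowest in replicate 3, as the pair was.

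Markers of neutrophils moved with the pair. Ngp, a protein of neutrophil granules, was at 135, 340 and 24.1 FPKM in CD11b+ B cells, at 0.221, 0.539 and 0.306 in CD11b- cells, and at 0.727, 0.140 and 0.203 in PMs. The sum of 14 neutrophil markers was 274, 637 and 57.2 in the CD11b+ libraries and 0.692, 1.43 and 0.993 in the CD11b- libraries. Of the 14, limma called 1 higher (Retnlg), edgeR with its filter called 8 and DESeq2 13. By limma 14 of the 14 were higher at an unadjusted p under 0.05, and Ngp was not called (adjusted p = 0.0563, limma). Of the 14, 12 were higher in CD11b+ than in CD11b- cells without overlap, and 13 had a mean of at least 1 FPKM in CD11b+ B cells against 0 in CD11b- cells. Among the CD11b+ libraries replicate 2 was the highest for 11 of the 14 and replicate 3 the lowest for 13. Of 13 markers with reads in each CD11b+ library, which varied 1.83 to 41.4-fold, 10 varied more than S100a8 and 9 more than S100a9 (Ngp 14.1-fold). The summed level of S100a8 and S100a9 was 1.46, 1.53 and 2.84 times the marker sum in the 3 CD11b+ libraries.

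The surface marker Ly6g, part of the Gr-1 epitope by which granulocytes were depleted, was at 1.34, 2.51 and 1.96 FPKM in CD11b+ B cells, at 0, 0.152 and 0 in CD11b- cells and at 0 in the PM libraries. In PMs the marker sum was 205 to 280, but 89.5 to 95% of it came from Csf3r and Prtn3. The sums of 3 further marker lists did not overlap either. Monocyte markers (10 genes) summed to 70.4 to 111 against 23.4 to 30.5, peritoneal macrophage markers (9 genes) to 149 to 335 against 99.2 to 128, and erythroid markers (6 genes) to 38.6 to 48.8 against 2.16 to 25.2. The macrophage sum rested on Lyz2, a lysozyme of macrophages and neutrophils, at 261, 240 and 65.4 in CD11b+ B cells and 30.8, 30.1 and 42.2 in CD11b- cells. Without Lyz2 the sums overlapped, at 73.5, 89.5 and 83.7 against 68.4, 75.6 and 85.4. T cell markers (6 genes) summed to 12.5 to 21.1 against 11.6 to 18.7, nearly all of it Lck, a kinase also read in the B cell libraries. The other 5 T cell markers summed to 0.244, 1.07 and 1.70 in CD11b+ B cells and to 0.0991, 0.0614 and 0.292 in CD11b- cells, which overlap. Platelet markers (6 genes) summed to 4.84 to 7.76 against 2.67 to 4.85. Limma called 0 genes of these 5 lists or of the B cell markers, with an unadjusted p under 0.05 for 6 monocyte, 5 macrophage and 4 erythroid markers, and DESeq2 called 6 monocyte, 3 macrophage and 1 T cell markers. EdgeR with its filter called 2 monocyte markers. The part of such cells in the levels of S100a8, S100a9 and S100a6 was not tested.

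**Figure D2:**
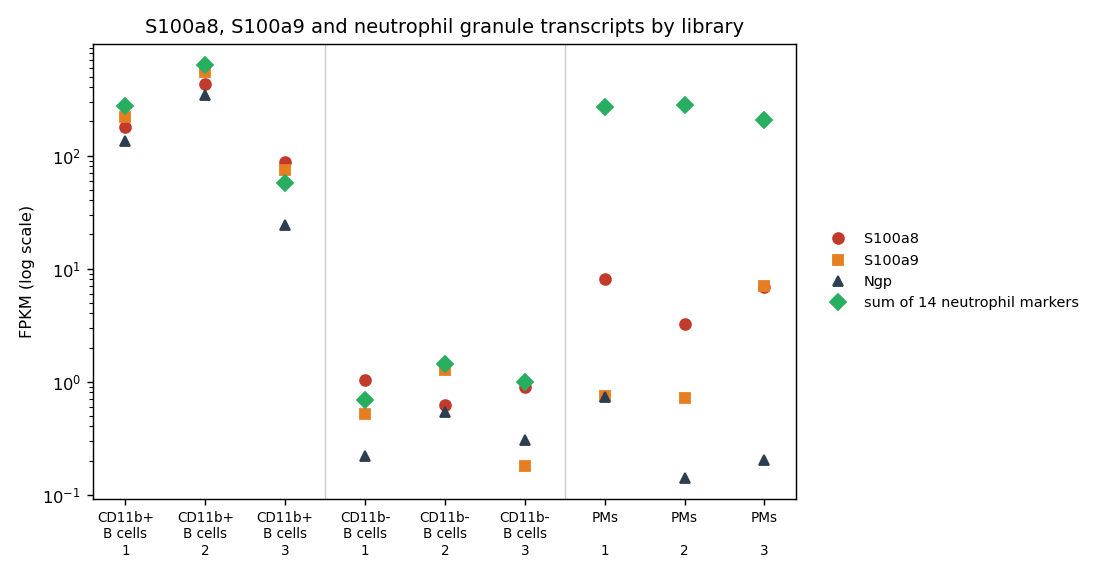
FPKM (log axis) of S100a8, S100a9, Ngp and the sum of 14 neutrophil markers in each library. In CD11b+ B cells the 4 quantities are each highest in replicate 2 and lowest in replicate 3, and in PMs the marker sum of 205 to 280 stands far above S100a8 and S100a9.

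S100a6 (calcyclin, a partner of the ubiquitin ligase adaptor Cacybp) had the opposite standing towards PMs. It was at 14.7, 12.9 and 16.8 FPKM in CD11b+ B cells, at 1.86, 1.68 and 3.97 in CD11b- cells, and at 164, 224 and 100.3 in PMs. The 3 groups did not overlap, in the order PMs, CD11b+ B cells, CD11b- cells. The mean in CD11b+ B cells (14.8 ± 1.99, SD, n = 3) was 5.92-fold that in CD11b- cells (2.5 ± 1.27) and 9.11% of that in PMs (163 ± 61.7). CD11b- cells held 1.54% of the PM mean. The difference in log2(FPKM + 1) was 2.22 ± 0.27 (SE) between the B cell groups and -3.30 ± 0.29 between CD11b+ B cells and PMs.

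S100a4, a binder of non-muscle myosin known from motile cells and macrophages, was at 42.2, 54.6 and 32.7 FPKM in PMs and close to absent in B cells. CD11b+ B cells had 8, 7 and 0 reads (0.466, 0.458 and 0 FPKM) and CD11b- cells 0, 1 and 2 reads (0, 0.0491 and 0.107 FPKM), and these libraries overlapped. At 15 reads against 3 in all, of which none were in CD11b+ replicate 3, no difference between the B cell groups is read from these values. PMs had 1761 reads, and the mean in CD11b+ B cells was 0.714% of the PM mean. Of the 584 exon bases of S100a4, 302 (51.7%) are shared with Gm42674 on the same strand, which was at 0 in every library, so the level of S100a4 is uncertain where reads fall on the shared bases.

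S100a10 and S100a11 were abundant in both B cell groups. S100a10 (p11, the ligand that ties annexin A2 to the plasma membrane) was at 127, 143 and 190 FPKM in CD11b+ B cells, at 113, 122 and 128 in CD11b- cells, and at 307, 458 and 309 in PMs. The B cell groups overlapped and both stood below PMs. The means were 154 ± 32.6 (SD, n = 3), 121 ± 7.32 and 358 ± 86.8, so that CD11b+ B cells held 42.9% and CD11b- cells 33.8% of the PM mean. The difference in log2(FPKM + 1) was 0.32 ± 0.17 (SE) between the B cell groups.

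S100a11, a partner of annexin A1, was at 131, 173 and 244 FPKM in CD11b+ B cells, at 131, 147 and 166 in CD11b- cells and at 228, 381 and 140 in PMs. No pair of groups was free of overlap. The difference in log2(FPKM + 1) was 0.27 ± 0.23 (SE) between the B cell groups and -0.37 ± 0.39 between CD11b+ B cells and PMs.

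S100a13, which helps to export FGF1 and IL-1α, was at 42.0, 49.6 and 77.0 FPKM in CD11b+ B cells and at 43.5, 41.8 and 46.9 in CD11b- cells. PMs were at 204, 275 and 179, above every B cell library, and the B cell groups overlapped. The means of CD11b+ and CD11b- cells were 25.6% and 20.1% of the PM mean.

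S100a1, best known from the calcium handling of heart muscle, was at 388, 483 and 361 FPKM in PMs. It was at 3.97, 4.4 and 2.94 in CD11b+ B cells and at 1.04, 2.39 and 3.60 in CD11b- cells, which overlapped. The B cell means were 0.919% and 0.571% of the PM mean, and S100a1 had the highest mean of the 8 genes in PMs (411 ± 64.1, SD, n = 3). The neighbouring gene S100a13, with a start 43 bases away, stood at 44.1 ± 2.57 in CD11b- cells.

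**Figure D3:**
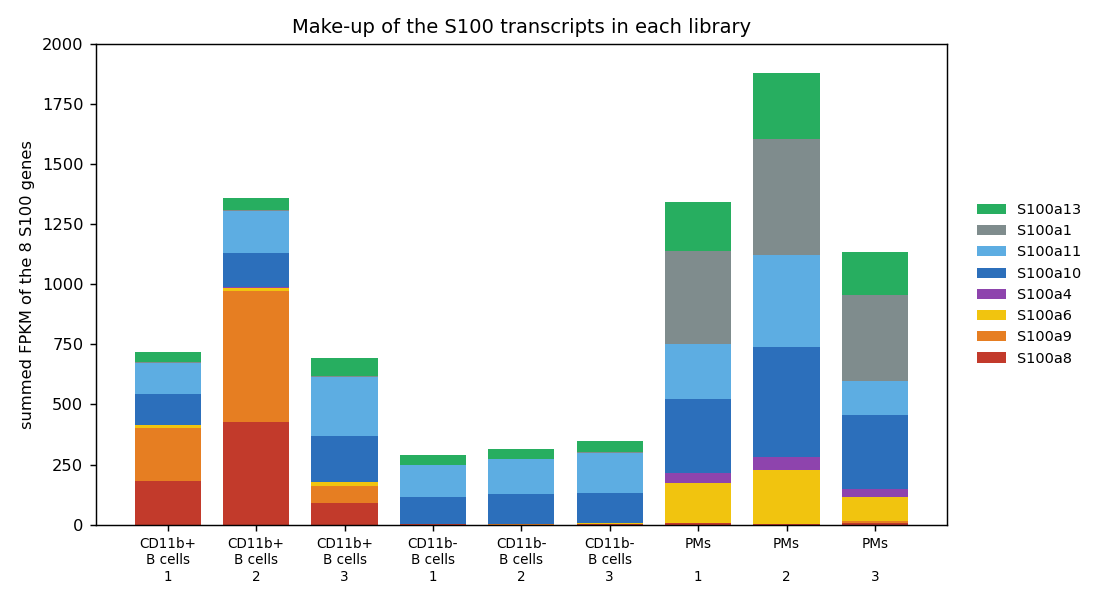
Summed FPKM of the 8 S100 genes in each library, stacked by gene. The CD11b- bars (292 to 349) consist almost wholly of S100a10, S100a11 and S100a13, the CD11b+ bars (694 to 1358) add S100a8 and S100a9, and the PM bars (1136 to 1880) add S100a1, S100a6 and S100a4.

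The make-up of the S100 transcripts differed between the groups. In CD11b- cells S100a10, S100a11 and S100a13 gave 98.5, 98.1 and 97.5% of the summed FPKM of the 8 genes. In CD11b+ B cells S100a8 and S100a9 gave 55.6, 71.7 and 23.4%, against 0.309 to 0.595% in CD11b- cells and 0.209 to 1.22% in PMs. In PMs S100a1 gave 25.7 to 31.8%, S100a10 22.9 to 27.2% and S100a6 8.83 to 12.2%. The sum was 720, 1358 and 694 FPKM in CD11b+ B cells, 292, 316 and 349 in CD11b- cells, and 1342, 1880 and 1136 in PMs. With S100a8 and S100a9 left out it was 320, 384 and 531 in CD11b+ B cells and 290, 315 and 348 in CD11b- cells, which overlap.

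**Figure D4:**
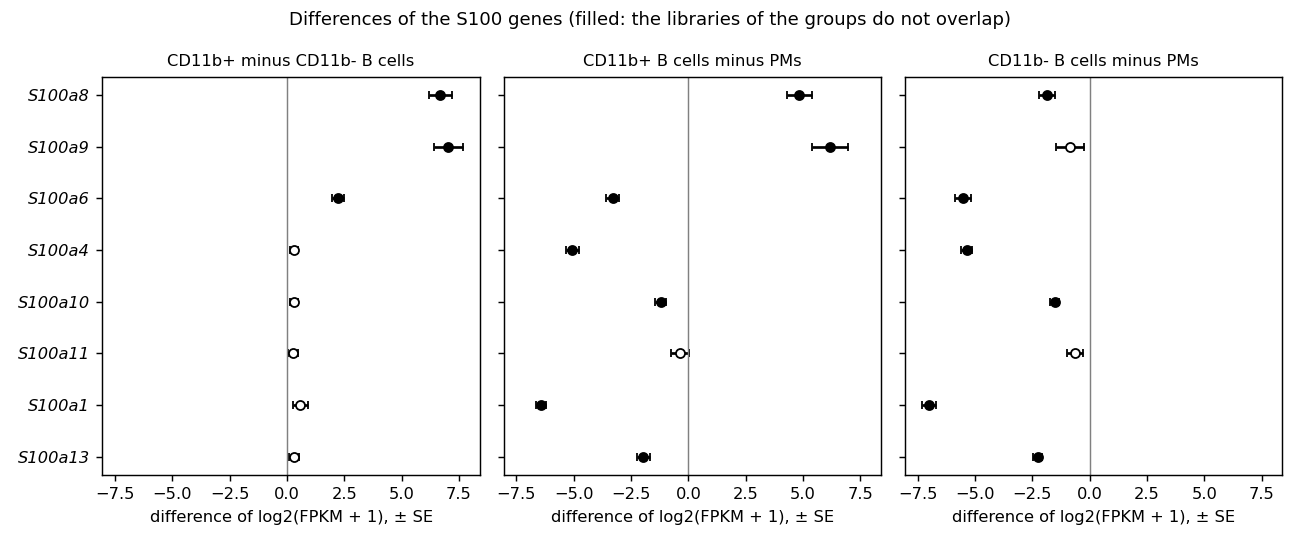
Difference in log2(FPKM + 1) ± SE of each S100 gene (3 libraries a group) in the 3 comparisons. The filled points are genes whose groups do not overlap, 3 between the B cell groups, 7 between CD11b+ B cells and PMs, and 6 between CD11b- cells and PMs.

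For the genes as a whole, limma was fitted to log2(FPKM + 1) for every gene with a mean of at least 0.05 FPKM in the 6 libraries compared, with Benjamini-Hochberg adjustment at 0.05. The 8 members passed this filter in each comparison. The comparisons share libraries and are not independent of each other. Between CD11b+ and CD11b- cells the fit called 3 of the 8 members higher, S100a8, S100a9 and S100a6, where 0.0689% of 21778 genes were called higher. The same 3 were higher without overlap, as were 8.63% of all genes. Since the members were chosen with these values in view, these counts and those against PMs below are no tests of the members, and nothing is read from them. S100a6 was no longer called with median-ratio scaling, in limma without a trend, or when any library other than CD11b- replicate 3 was left out. S100a9 was no longer called without CD11b+ replicate 1 or without any 1 of the CD11b- libraries, and S100a8 was called in each of these fits. With no filter on FPKM, or with the number in the library code as a replicate block, 0 of the 8 members were called. The median difference in log2(FPKM + 1) was 0.45 over the members and 0.03 over all genes.

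Against PMs the fit called 2 members higher in CD11b+ B cells (S100a8 and S100a9) and 5 lower (S100a6, S100a4, S100a10, S100a1 and S100a13, of which S100a10 was not called with no filter on FPKM). It called 21.5% of 22102 genes higher and 8.78% lower. The same members did not overlap between the groups, where 34.3% of all genes were above and 12.4% below without overlap. In CD11b- cells 6 members were called lower than in PMs, namely S100a8 and the same 5 (S100a11 as well in edgeR, in DESeq2 and without PM replicate 3, and in edgeR without a filter also for CD11b+ B cells), where 11% of 20985 genes were called lower and 25.8% higher, and 15.2% were below without overlap. Of the genes called between CD11b+ B cells and PMs, 71.0% were higher in the B cells, but 53.3% with median-ratio scaling, and for CD11b- cells the shares were 70.1% and 52.5%. The median difference over all genes was 0.25 and 0.24 in these comparisons and fell by 0.13 and 0.16 with that scaling. Relative to the median gene, S100a10 was at -1.46 and S100a13 at -2.22 in CD11b+ B cells against PMs, and at -1.83 and -2.59 after the scaling.

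Genes that encode receptors, binding partners and regulators of S100 proteins were not used to choose the members, and the same fit was read for them. Of 9 receptor genes, limma called 0 in CD11b+ against CD11b- cells, with 0 at an unadjusted p under 0.05 and 0 by edgeR or DESeq2 on the reads. Ager (RAGE) was at 1.26, 1.91 and 3.95 FPKM in CD11b+ B cells, at 1.39, 2.18 and 1.36 in CD11b- cells and at 0.0259, 0.176 and 0.0463 in PMs. It was higher in both B cell groups than in PMs, by 1.56 ± 0.34 (SE) on the log2(FPKM + 1) scale in CD11b+ (adjusted p = 0.0105, limma) and by 1.27 ± 0.23 in CD11b- cells (adjusted p = 0.00404, limma). Tlr4, the LPS receptor, was at 3.76, 2.84 and 1.43 in CD11b+ B cells, at 4.12, 3.70 and 4.04 in CD11b- cells and at 4.02, 5.12 and 7.29 in PMs. None of its 3 differences passed the threshold (adjusted p = 0.709 between the B cell groups, 0.108 for CD11b+ B cells against PMs and 0.318 for CD11b- cells against PMs, limma), although edgeR with its own filter and DESeq2, both on the reads, called Tlr4 lower in both B cell groups than in PMs. For CD11b+ B cells against PMs, limma with median-ratio scaling and edgeR without a filter called it as well.

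Against PMs, the fit called 8.78% of all tested genes lower and 21.5% higher in CD11b+ B cells, and 11% and 25.8% in CD11b- cells. Of the receptor genes, 6 were lower and 1 higher both in CD11b+ B cells (8 tested) and in CD11b- cells (9 tested). The largest differences among those lower were in Cd33, a lectin, with -2.96 on the log2(FPKM + 1) scale in CD11b+ and -3.10 in CD11b- cells. Ly96 (MD-2, the partner of Tlr4) differed by -2.60 and -3.06, Alcam, an adhesion molecule, by -1.96 and -2.16, and Cd36, a scavenger receptor, by -1.79 and -2.12. The adjusted p-values of these genes were at most 0.0236 by limma. The call of Cd36 in CD11b+ B cells was lost without PM replicate 2 or without PM replicate 3, and with no filter on FPKM limma called Cd36 in neither B cell group and Ager only in CD11b- cells.

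Of 14 genes for intracellular partners, 11 were tested between the B cell groups and 1 rose, Anxa2, the annexin bound by S100a10. Anxa2 was at 9.77, 8.24 and 7.44 FPKM in CD11b+ B cells, at 1.56, 1.47 and 0.828 in CD11b- cells and at 48.5, 102 and 77.3 in PMs, with no overlap between the groups. Its difference between the B cell groups was 2.06 ± 0.23 (SE) on the log2(FPKM + 1) scale (adjusted p = 0.0415, limma). It was no longer called when any library other than CD11b+ replicate 3 was left out (adjusted p from 0.0884 to 0.210), without the filter on FPKM (0.132), or with the title number (0.0693) or the library code number (0.656) as a replicate block. S100a10 itself exceeded Anxa2 13 to 25.5 times in the CD11b+ libraries, 72.7 to 154 times in the CD11b- libraries and 4.0 to 6.34 times in PMs.

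Ahnak, a large scaffold protein that binds S100a10 with annexin A2, was at 2.79, 2.70 and 3.59 FPKM in CD11b+ B cells, at 1.27, 0.743 and 0.989 in CD11b- cells and at 85.0, 62.9 and 63.5 in PMs. The B cell groups did not overlap, but limma did not call the difference of 1.01 ± 0.24 (SE, adjusted p = 0.350), while edgeR and DESeq2 on the reads did (adjusted p = 0.0499 in edgeR with its filter). Anxa1 was at 22.9, 34.5 and 7.08 in CD11b+ B cells and at 5.41, 5.16 and 8.14 in CD11b- cells, with a difference that limma did not call (adjusted p = 0.579) but DESeq2 (adjusted p = 0.00932) and edgeR without a filter did. PMs had 109, 122 and 151. Cacybp was at 97.1, 85.6 and 68.4, at 80.5, 81.7 and 40.4 and at 56.7, 77.0 and 73.2 in the 3 groups, which overlapped.

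Against PMs the shares of all genes called were 8.78% lower and 21.5% higher in CD11b+ B cells, and 11% and 25.8% in CD11b- cells. Of 13 tested partner genes 6 were lower in CD11b+ B cells and 2 were higher, and in CD11b- cells 6 were lower and 4 higher. The largest differences were those of Ahnak (-4.14 in CD11b+ and -5.15 in CD11b- cells), Anxa2 (-2.96 and -5.02), Anxa1 (-2.74 and -4.16) and Cybb (-2.30 and -2.43), the last a subunit of the NADPH oxidase to which calprotectin binds. Each of these had an adjusted p of at most 0.00416 by limma, and Anxa1 in CD11b+ B cells was no longer called with no filter on FPKM (0.0726). Il1a, which encodes the cytokine IL-1α, was among the 6 lower genes in both comparisons (adjusted p = 0.0287 and 0.0185, limma). It was no longer called in either with no filter on FPKM, nor without any 1 of the B cell libraries compared, nor, for CD11b+ B cells, without PM replicate 1 or 2. The 2 genes higher in both B cell groups were Myh9, a non-muscle myosin heavy chain, and Hltf, a chromatin helicase, of which Hltf was not called in CD11b+ B cells by edgeR without a filter. In CD11b- cells Stip1, a co-chaperone, and Anxa6, an annexin, were called higher as well, but neither was with median-ratio scaling, edgeR or DESeq2. Stip1 was also lost with no filter on FPKM, and Anxa6 without CD11b- replicate 1 or without CD11b- replicate 2. Cacybp was not called in either comparison (adjusted p = 0.358 and 0.824, limma).

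Of 8 genes for transcription factors tied to S100a8 and S100a9, limma called 0 between the B cell groups, with 0 at an unadjusted p under 0.05 and 0 by edgeR or DESeq2. Cebpa, the C/EBP factor of granulocyte precursors, was at 0.0517, 0.261 and 0.161 FPKM in CD11b+ B cells, at 0, 0.0217 and 0.0355 in CD11b- cells and at 19.6, 18.6 and 15.1 in PMs. Cebpb, of macrophages, was at 0.0679, 0.102 and 0.264 in CD11b+ B cells, at 0.120, 0.114 and 0 in CD11b- cells and at 62.6, 28.8 and 20.8 in PMs. Both genes were high in PMs and near 0 in B cells. Cebpa and Cebpd, the latter at a mean of 0.501 against 0.193, stood higher in CD11b+ than in CD11b- cells without overlap, with adjusted p = 0.725 and 0.687 by limma. Cebpe, which acts late in granulocytes, was at 0.466, 0.523 and 0 in CD11b+ B cells, at 0, 0 and 0.0503 in CD11b- cells and at 0.179, 0 and 0 in PMs. Spi1 (PU.1), shared by B cells and myeloid cells, was at 38.4, 42.1 and 32.7 in CD11b+ B cells, at 40.6, 40.2 and 51.1 in CD11b- cells and at 69.6, 132 and 88.8 in PMs.

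Against PMs 4 factor genes were lower in each B cell group, of 8 tested in CD11b+ and 7 in CD11b- cells, and 2 were higher. Over all genes 8.78% were called lower and 21.5% higher in CD11b+ B cells, and 11% and 25.8% in CD11b- cells. Cebpb differed by -4.92 in CD11b+ and -5.01 in CD11b- cells, Cebpa by -4.01 and -4.19, and Cebpd by -2.59 and -2.91 on the log2(FPKM + 1) scale, with adjusted p of at most 0.000787 by limma. Spi1 was the fourth, with -1.29 and -1.08 (adjusted p = 0.00673 and 0.0120, limma). The call of Spi1 in CD11b- cells was lost without CD11b- replicate 1 or without CD11b- replicate 2, and in both groups with no filter on FPKM. Gfi1, a repressor needed for neutrophils and B cell precursors, was higher, by 1.52 and 2.0 (adjusted p = 0.00774 and 0.00294, limma), and edgeR with its filter did not call it in CD11b+ B cells. The other gene called higher was Hif1a, the hypoxia-induced factor, whose call in CD11b+ B cells was lost with median-ratio scaling, edgeR or DESeq2. That call was also lost with no filter on FPKM, and without CD11b+ replicate 1 or without CD11b+ replicate 2.

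**Figure D5:**
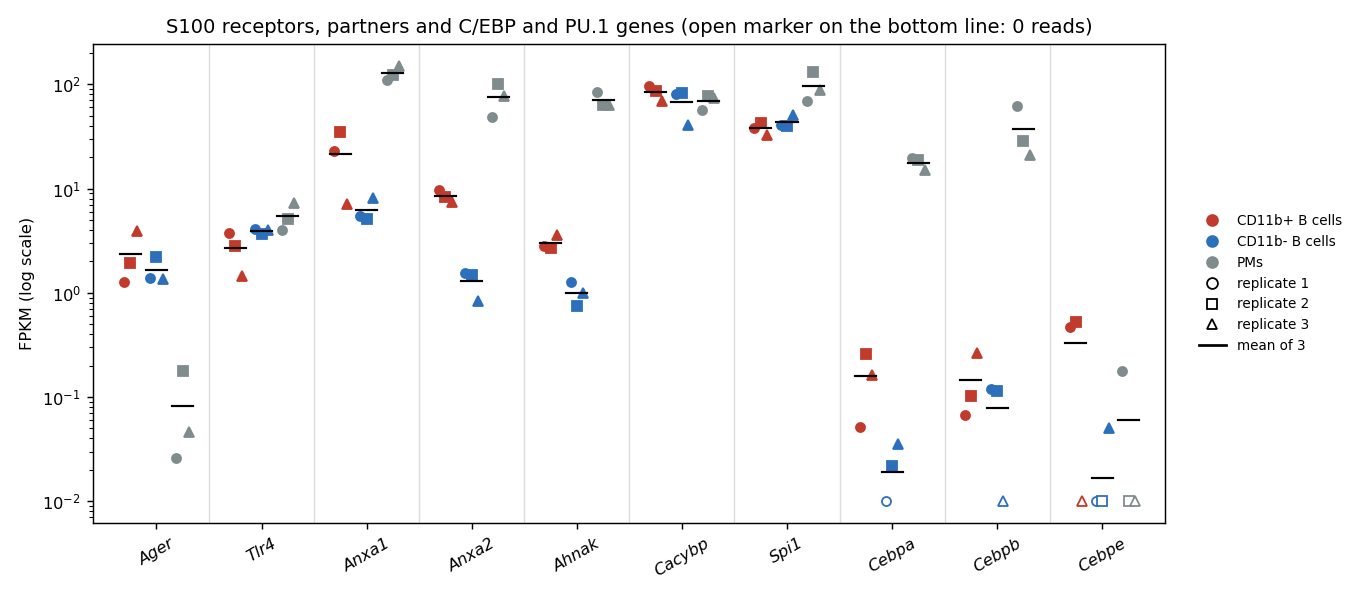
FPKM (log axis) of genes for S100 receptors (Ager, Tlr4), intracellular partners (Anxa1, Anxa2, Ahnak, Cacybp) and transcription factors (Spi1, Cebpa, Cebpb, Cebpe) in each library, with a bar at the mean of 3. Anxa2 lies apart in the 3 groups, and Cebpa and Cebpb are at 15.1 or more in PMs and at most 0.264 in B cells.

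The genes most like each member were found by the root mean square difference in log2(FPKM + 1) over the 9 libraries, after each gene was centred on its own mean, among 12493 genes with a mean of at least 1 FPKM. The 9 libraries share 3 groups, so this likeness is mostly that of the group means. Nearest to S100a8 were S100a9 (0.87), then Ngp, Camp, Ltf (0.93 to 1.10) and Ighg2c (1.36). Nearest to S100a9 were Ngp (0.83), S100a8 (0.87), Camp, Ltf and again Ighg2c (1.16 to 1.52). Camp and Ltf encode antimicrobial proteins of neutrophil granules, and Ighg2c encodes an immunoglobulin heavy chain.

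Nearest to S100a6 was Anxa2 (0.54), followed by Sirpa, Clec4a3, Mpeg1 and Lgals3 (0.55 to 0.62), genes abundant in PMs. Nearest to S100a4 were Rhoc, Rab11fip5, Cbr2, Cd9 and Cd300lb (0.15 to 0.24), of which Cd9 was the only one with a mean above 1 FPKM in B cells (10.9 in CD11b+ and 7.23 in CD11b- cells, against 374 in PMs). S100a10 was nearest to Unc119, Ssr4, Cnpy2, Cenpb and Gng5 (0.13 to 0.15), and S100a11 to Atp5e, Elob, Atp5j2, Uqcr10 and Mrpl52 (0.13 to 0.20), of which Atp5e, Atp5j2 and Uqcr10 encode parts of the respiratory chain and ATP synthase. Among the members the closest pairs were S100a10 with S100a13 (0.36) and with S100a11 (0.47).

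Of the 12 other genes whose symbols begin with S100, 2 reached a mean of 1 FPKM in a group. S100g (calbindin-D9k) was at 0.497, 0.557 and 3.19 FPKM in CD11b+ B cells, at 0.437, 1.97 and 1.88 in CD11b- cells and at 0.463, 0.0713 and 1.14 in PMs. The groups overlapped. S100pbp, which encodes a protein that binds an S100 protein and is not an S100 itself, was at 2.28, 2.85 and 3.24, at 3.41, 2.48 and 3.10 and at 2.09, 0.772 and 0.587. Neither was called in any of the 3 comparisons (adjusted p of at least 0.0615, limma).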

How the data were processed

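RNA was measured in 9 libraries, grouped by the sample labels as 3 of CD11b+ B cells, 3 of CD11b- B cells and 3 of PMs. The authors made full-length cDNA libraries (SMART-seq HT), trimmed the reads, mapped them with STAR and counted them on genes with featureCounts. Versions in the submitters' processing notes are Trim Galore 0.4.4, Trimmomatic 0.36, cutadapt 1.16, STAR 2.7.2b, featureCounts 1.6.1 and DESeq2 1.20.0. No source used here says whether strand was used in counting. The reads come from amplified cDNA and carry no molecular identifiers. The notes name both GRCm38 and GRCm39, so positions are those of GENCODE M21 by gene identifier.

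The FPKM values deposited by the authors for 55322 genes were the measure used. In their normalized table of 11063 genes, the authors' signal is a count divided by a size factor, and this table served only to check the reads. Its column of gene clusters was not used. FPKM times exon length gave whole reads for 100% of values in every library, within 0.05 of a read, and these equalled the reads behind 100% of the normalized values.

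The test was limma 3.58.1 (two-sided, moderated along a trend by eBayes) on log2(FPKM + 1) of the genes with a mean of at least 0.05 FPKM, adjusted by Benjamini-Hochberg over all tested genes at 0.05. The alternatives were other pseudocounts and filters, all 9 libraries in one fit, replicate blocks, other scalings, limma without a trend, edgeR 4.0.16 and DESeq2 1.42.0 on the whole reads, and each library left out. Only the main limma fit and edgeR with its filter were first run on simulated data, and the other alternatives were not. Promoters came from RefSeq (GRCm38.p6). The genes named are the members, the other S100 genes with a mean of at least 1 FPKM in a group, the 4 called genes with the largest differences per list and comparison, 10 fixed genes of the lists (Anxa1, Anxa2, Ahnak, Cacybp, Ager, Tlr4, Cebpa, Cebpb, Cebpe and Spi1), 7 markers (of which 1 is not reported here), and the 5 genes most like each of 6 members. Csf3r, Prtn3, Lyz2, Lck, Retnlg, Chil3, Ly6c2, Ms4a6c, Myh9, Hltf, Stip1, Anxa6, Il1a and Hif1a were singled out after their values were seen. Cell type markers were lists of neutrophil, monocyte, peritoneal macrophage, B cell, T cell, platelet and erythroid genes. The members and the gene lists were chosen with earlier results of these data known.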

Additional observations from a re-analysis of the deposited data

How the results depend on the processing

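The sign of each S100 difference was kept under every alternative that gave a value, in 150 of 150 values between the B cell groups (19 alternatives) and in 144 of 144 against PMs for each B cell group (18 alternatives). The alternatives re-fit the libraries by which the members were chosen, and several leave a difference unchanged. A kept sign is therefore no test of a member. For S100a11 the smallest difference was 0.036 between the B cell groups and -0.012 for CD11b+ B cells against PMs. How many genes passed the threshold between the B cell groups did depend on the processing. The main count of 15 genes became 37 and 25 with pseudocounts of 0.1 and 0.01, 6 with no filter on FPKM, 31 with a mean of at least 1 FPKM, 35 with all 9 libraries in one fit, 42 and 571 in edgeR with and without its filter, and 392 in DESeq2. The pathway genes called (1 in the main fit) were 0 with no filter, 2 and 3 in edgeR with and without its filter, and 3 in DESeq2. The S100 genes called (3) were 0 with no filter. Leaving out 1 library gave 3 to 40 genes, 0 to 1 pathway genes and 1 to 2 S100 genes. With no filter, 4199 instead of 6700 genes were called in CD11b+ B cells against PMs, and 4940 instead of 7710 in CD11b- B cells against PMs. Leaving out 1 library gave 4500 to 6945 and 5659 to 8297 genes. The cause of these shifts was not tested. The unfiltered fit also holds the genes at or near 0.

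With the replicate number in the titles as a block, limma called 16 genes and 3 S100 genes between the B cell groups but 0 pathway genes, since Anxa2 was lost (adjusted p = 0.0693). Same-numbered libraries had correlations of 0.287, -0.0170 and 0.209 in their deviations from the group means, so not every pair was above 0.1. The pairs at 0.287 and 0.209 also share the number in their library codes, and the pair at -0.0170 does not. The labels do not say what either number marks, and whether libraries are paired was not settled. With the number in the library codes as a replicate block, which only 2 pairs of libraries share, the other 2 libraries each being a block of their own, 0 genes, 0 pathway genes and 0 S100 genes were called. Only the 2 pairs inform the difference between the groups in that fit, so its lack of calls was to be foreseen from the design.

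The depth limits S100a8 and S100a9 in CD11b- B cells, at 59 and 35 reads in all, and S100a4 in both B cell groups.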
